A study of Mus musculus with 20 samples.

Results

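The IL-6 family of cytokines and receptors was followed in the abdominal aorta of 20 mice through 10 genes chosen by name, out of 43422 genes measured. They were the ligands Il6, Il11, Osm and Lif, the ligand-specific receptors Il6ra and Il11ra1, the signalling receptors Il6st, Osmr and Lifr, and the feedback inhibitor Socs3. The labels give mice of C57BL/6 background (C57Bl/6NCrl in the study's methods) that were 6 months old, and 5 mice were assigned to each of 4 groups. WT mice received saline or angiotensin II (Ang II) from a pump under the skin for 14 days, and Plod1-/- mice, which lack lysyl hydroxylase 1 (LH1) throughout the body, received the same treatments. The Ang II dose was 1000 ng/kg per minute. For its aneurysm model the study's methods give a younger age at the start and a longer infusion than these labels do. For RNA sequencing the study names day 14, the time that the labels give. The study bred its WT and Plod1-/- mice as littermates and used Ang II to produce dissecting abdominal aortic aneurysm, so the comparisons ask how the loss of LH1, a collagen-modifying enzyme, changes the response of the aorta to Ang II. RNA was taken from the whole vessel, and the values are FPKM, read fragments scaled to the length of the gene and the size of the library, so levels can be set side by side between genes.

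Cytokines of the IL-6 family signal through a shared receptor chain, gp130, which Il6st encodes. A ligand first binds its own receptor (Il6ra for interleukin-6, Il11ra1 for interleukin-11) or brings gp130 together with a second signalling chain (Osmr for oncostatin M, Lifr for leukemia inhibitory factor), and Janus kinases on these chains then phosphorylate STAT3. STAT3 switches on Socs3, whose protein binds gp130 and shuts the signal off, so Socs3 mRNA is widely used as a readout of the pathway. In the artery wall, smooth muscle cells, fibroblasts and macrophages are known sources of interleukin-6.

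Promoters are shown for Il6, the ligand with the largest ratio between group means, and for Socs3, the feedback readout, since both are known to be set by transcription factors of inflammation. Each run is the 250 bases before the RefSeq start of the gene, read 5′ to 3′ on its strand in GRCm38.p6, with matches to the motifs searched in capitals. The Il6 window is chr5:30012864-30013113 on the plus strand and the Socs3 window is chr11:117969367-117969616 on the minus strand. The Socs3 window lies inside the span that GENCODE gives the gene, chr11:117966079-117970047, so it is upstream of the RefSeq start only.
Il6: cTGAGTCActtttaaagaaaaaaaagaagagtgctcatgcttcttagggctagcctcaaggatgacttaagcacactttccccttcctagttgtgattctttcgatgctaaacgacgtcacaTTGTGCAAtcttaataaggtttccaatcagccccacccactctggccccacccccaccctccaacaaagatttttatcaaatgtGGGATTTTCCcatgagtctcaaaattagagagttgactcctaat
Socs3: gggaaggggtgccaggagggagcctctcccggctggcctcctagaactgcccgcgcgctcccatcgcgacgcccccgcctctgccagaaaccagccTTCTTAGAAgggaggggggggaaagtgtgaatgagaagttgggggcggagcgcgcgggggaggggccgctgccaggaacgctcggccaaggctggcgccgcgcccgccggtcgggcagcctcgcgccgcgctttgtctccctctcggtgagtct
The capitals in the Il6 promoter mark, in order, TGAGTCA, an AP-1 motif that begins 249 bases before the start, TTGTGCAA, a C/EBP motif that begins 128 bases before it, and GGGATTTTCC, an NF-kappaB motif that begins 44 bases before it. In the Socs3 promoter they mark TTCTTAGAA, a STAT motif that begins 154 bases before the start. The motifs were searched on both strands as TGANTCA for AP-1, TTGNNCAA for C/EBP, GGG, any 2 bases and TTTCC for NF-kappaB and TTCNNNGAA for STAT, and no match overlapped another. Among 32851 RefSeq promoters of this length, 6.749% held the AP-1 motif, 5.65% the C/EBP motif, 1.412% the NF-kappaB motif and 7.02% the STAT motif. Of the 9 members with an entry, Lif was the only other one with a match, TGACTCA, the AP-1 motif, beginning 228 bases before its start.

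The libraries carried the genotype that their labels gave. Plod1, the targeted gene, lay between 22.8 and 29.6 FPKM in WT mice and between 0 and 0.0415 FPKM in Plod1-/- mice. The smooth muscle markers of the aorta (6 genes, Acta2 and Myh11 among them) were present in each library, with sums from 2297 to 20700.0 FPKM. A few libraries stood apart. In Ang II-treated WT replicate 1 the sum of 8 macrophage markers was 1290 FPKM, against a group median of 278, and the sum of 6 neutrophil markers was 192 FPKM, against 11.6. Ang II-treated Plod1-/- replicate 1 had 16760 FPKM of smooth muscle markers, against 2297 to 6161 in the other 4 mice of its group. It and saline-treated Plod1-/- replicate 5 held Xist RNA, which is made from the inactive X chromosome of females, at 7.93 and 15.1 FPKM, while the other 18 libraries reached at most 0.0328 FPKM, although the study's methods describe male mice only. Mitochondrial genes took 14.6% to 29.1% of the FPKM sum in Ang II-treated WT mice and 8.37% to 21.1% in the other groups. Depth is unknown because the values are FPKM.

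The 4 ligands were near the bottom of the measurable range in WT mice under either treatment and in saline-treated Plod1-/- mice. All 4 were higher in the Ang II-treated Plod1-/- mice, and no mouse of that group overlapped any mouse of another group for any ligand. What share of all genes separates the groups in this way was not counted, so the separation only describes these genes. The inhibitor Socs3 was high in the same mice, the receptor Il6ra moderately so, and the receptor Il11ra1 was lowest there.

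A gene was called where limma gave an adjusted p below 0.05 and the log2 fold change was larger than 1 in either direction. Between the Ang II-treated genotypes 5 of the 9 members tested were called higher in Plod1-/- mice (Il6, Il11, Osm, Il6ra and Socs3), where 7.45% of all 12356 genes tested were. None was called lower, where 3.67% of all genes were. Lif was below the filter and not tested here or for the Ang II response of Plod1-/- mice. For the Ang II response of Plod1-/- mice the same 5 were called higher and Il11ra1 lower, where 8.38% and 5.51% of all genes tested were. Il6, Il11 and Osm passed the filter only through the Ang II-treated Plod1-/- mice and so had to differ. These counts are not evidence about the family, nor are the limma p-values of those genes in these comparisons. For the Ang II response of WT mice, 0 of the 6 genes tested were called, with 6.38% of all genes called higher and 2.28% called lower, and only Il11ra1 among them had a limma p below 0.05 before adjustment. The 4 ligands were too low for that fit. In WT mice Il6 had a lower mean under Ang II than under saline, with a log2 difference of -0.21 (exact permutation p = 0.0238, two-sided, n = 5 against 5), and Osm a log2 difference of -0.43 (exact permutation p = 0.0556). The differences of Il11, 0.01, and Lif, -0.19, had exact permutation p of 0.786 and 0.119. These are 4 of 10 permutation tests, and their p-values are not adjusted. Under saline 0 of 6 genes were called between the genotypes by limma, with 0.358% of all genes called higher and 0.408% lower, and 2 of them, Il6st and Socs3, had a p below 0.05 before adjustment. The 4 ligands, again too low for the fit, had log2 differences between the saline-treated genotypes of -0.08 for Il6, 0.009 for Il11, -0.39 for Osm and -0.13 for Lif, with exact permutation p from 0.0556 to 0.929.

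Il6 (ENSMUSG00000025746, chr5:30013114-30019981, plus strand) encodes interleukin-6, the inflammatory cytokine that drives the acute-phase response. Values of single mice are given in the order of replicates 1 to 5. In the Ang II-treated Plod1-/- mice Il6 stood at 3.44, 8.20, 6.27, 10.3 and 7.64 FPKM. Saline-treated Plod1-/- mice had 0.0289, 0.0277, 0.267, 0.346 and 0.0441 FPKM. Every Ang II-treated Plod1-/- mouse was thus above every saline-treated one by a wide margin. WT mice had 0.269, 0.183, 0.0607, 0.414 and 0.113 FPKM under saline and 0.121, 0.0438, 0, 0.0287 and 0.0167 FPKM under Ang II. The mean of the Ang II-treated Plod1-/- group was 34.5 times that of the next group, saline-treated WT mice. On the log2(FPKM + 1) scale, which understates the change of genes at low FPKM, Il6 was higher by 2.91 (SE 0.21, adjusted p = 1.54e-04 by limma) than in Ang II-treated WT mice and by 2.78 (SE 0.22, adjusted p = 2.74e-05 by limma) than in saline-treated Plod1-/- mice. With a pseudocount of 0.1 in place of 1 these differences were 5.65 and 5.04. Il6 entered these fits through the Ang II-treated Plod1-/- mice alone, so the p-values are no evidence. With no filter on low values the limma adjusted p-values were 8.40e-04 and 1.26e-04.

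Osm (ENSMUSG00000058755, chr11:4236420-4241026, plus strand) and Lif (ENSMUSG00000034394, chr11:4257557-4272514, plus strand) are neighbours, 16530 bases apart. Osm encodes oncostatin M, which activated macrophages and neutrophils release. In the Ang II-treated Plod1-/- mice it measured 1.68, 9.99, 21.2, 7.68 and 6.20 FPKM, so replicate 1 was the lowest and replicate 3 the highest. In saline-treated Plod1-/- mice Osm was at 0.123, 0.193, 0.503, 0.123 and 0.204 FPKM. The WT values were 1.29, 0.732, 0.211, 0.688 and 0.276 FPKM under saline and 0.438, 0.0468, 0.0169, 0.153 and 0.303 FPKM under Ang II. The highest of these 15 mice, at 1.29 FPKM, lay just below the lowest Ang II-treated Plod1-/- mouse. Osm rose by a log2 fold change of 2.77 (SE 0.44, adjusted p = 7.11e-04 by limma) over saline in Plod1-/- mice and was higher by 2.82 (SE 0.44, adjusted p = 0.00223 by limma) than in Ang II-treated WT mice. The pseudocount of 0.1 gave 4.55 and 4.85. Like Il6, Osm entered these fits through the Ang II-treated Plod1-/- mice alone, so the p-values are no evidence. With no filter on low values the limma adjusted p-values were 0.00283 and 0.00966.

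Lif encodes leukemia inhibitory factor. Its levels were 0.964, 2.57, 4.60, 5.43 and 6.37 FPKM in Ang II-treated Plod1-/- mice. The other groups ranged from 0.172 to 0.500 FPKM in saline-treated Plod1-/- mice, from 0.162 to 0.641 FPKM in saline-treated WT mice and from 0.179 to 0.265 FPKM in Ang II-treated WT mice. The groups did not overlap, although replicate 1, at 0.964 FPKM, was far below its 4 companions and kept Lif below the filter of 1 FPKM in at least 5 mice. An exact permutation test gave p = 0.00794 (two-sided, n = 5 against 5, the smallest value this design allows) against Ang II-treated WT mice, with a difference of 1.87 on the log2 scale, and the same p against saline-treated Plod1-/- mice, with a difference of 1.81. With no filter on low values, the limma adjusted p-values were 0.012 and 0.00447.

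Il11 (ENSMUSG00000004371, chr7:4772373-4782859, minus strand) encodes interleukin-11, a cytokine that fibroblasts and smooth muscle cells make in response to transforming growth factor beta. The Ang II-treated Plod1-/- mice had 4.87, 1.22, 2.40, 3.53 and 1.25 FPKM. Saline-treated Plod1-/- mice had 0.105, 0.0502, 0.170, 0.383 and 0.248 FPKM. Among WT mice the range was 0.0924 to 0.257 FPKM under saline and 0.121 to 0.282 FPKM under Ang II. Here replicate 1 of the Ang II-treated Plod1-/- mice was the highest, where it was the lowest for Il6, Osm and Lif. Il11 was higher by 1.51 (SE 0.25, adjusted p = 0.00297 by limma) than in Ang II-treated WT mice and by 1.52 (SE 0.26, adjusted p = 9.97e-04 by limma) than in saline-treated Plod1-/- mice. With a pseudocount of 0.1 they were 3.08 and 3.16. Without replicate 1 and with a pseudocount of 1 the differences were 1.32 each, and both calls remained. Il11 entered all these fits through the Ang II-treated Plod1-/- mice alone, so their p-values and calls are no evidence. With all mice and no filter on low values the limma adjusted p-values were 0.0127 and 0.00409.

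**Figure D1:**
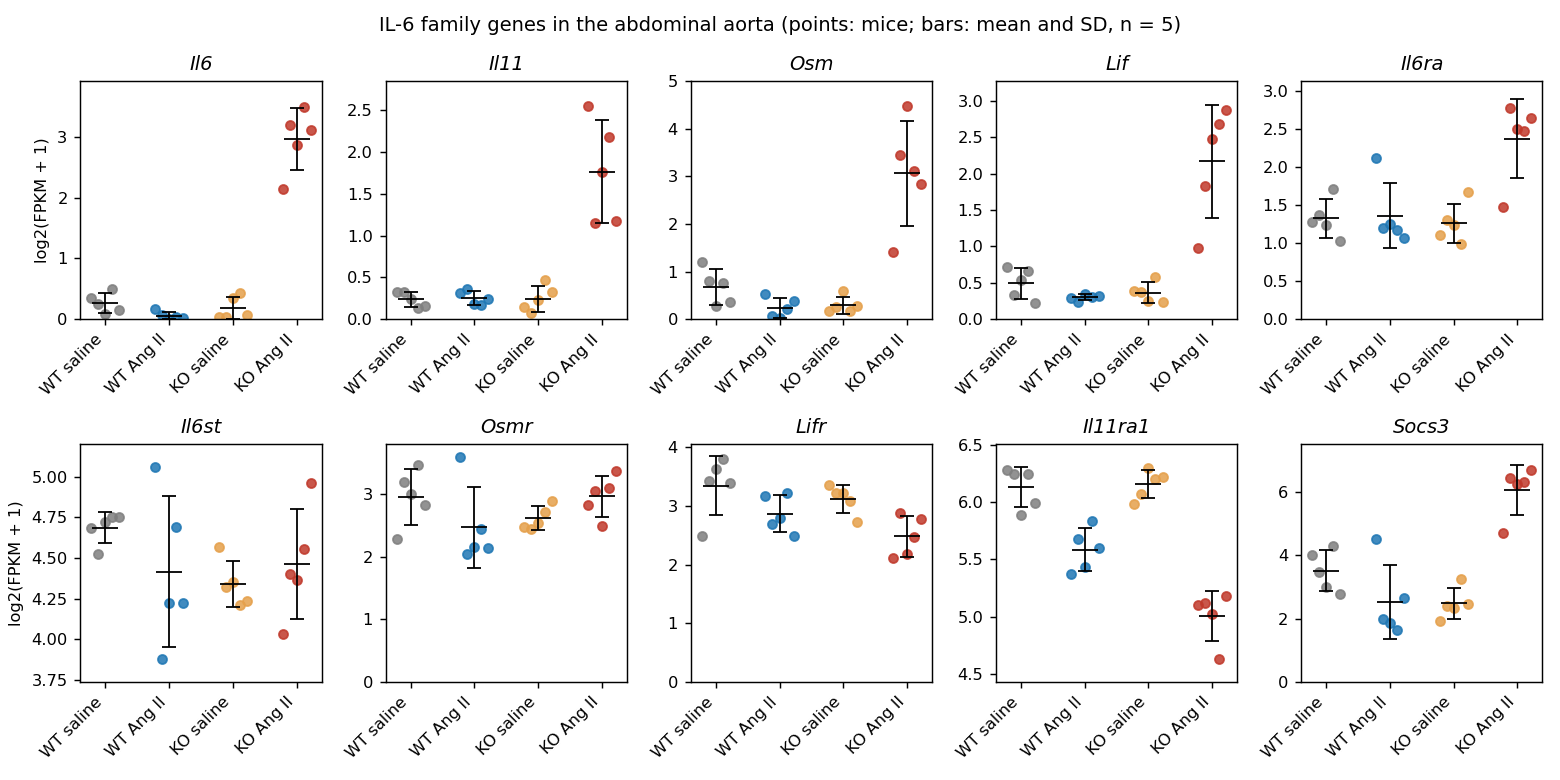
Level of each of the 10 genes in each mouse, as log2(FPKM + 1) on the vertical axis, by group on the horizontal axis; points are mice in replicate order and bars are the mean and SD of 5 mice. The axes of Il6st and Il11ra1 do not start at 0. The Ang II-treated Plod1-/- (KO) mice lie above all other mice for Il6, Il11, Osm, Lif and Socs3 and below all other mice for Il11ra1, while Il6st, Osmr and Lifr overlap between the groups. What share of all genes separates in this way was not counted.

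The ligand-specific receptors went opposite ways. Il6ra (ENSMUSG00000027947, chr3:89864059-89913196, minus strand) encodes the receptor that binds interleukin-6 and that can also act in a soluble form. In Ang II-treated Plod1-/- mice it was at 1.76, 5.85, 4.64, 4.54 and 5.25 FPKM. Ang II-treated WT mice had 3.32, 1.28, 1.39, 1.26 and 1.09 FPKM. Replicate 1 was the exception in both groups, low in the first and high in the second, so the ranges overlapped. Under saline the range was 1.03 to 2.28 FPKM in WT mice and 0.986 to 2.17 FPKM in Plod1-/- mice. Il6ra rose in Plod1-/- mice under Ang II by a log2 fold change of 1.11 (SE 0.23, adjusted p = 0.00343 by limma). Between the Ang II-treated genotypes it was higher by 1.01 (SE 0.27, adjusted p = 0.0184 by limma) in Plod1-/- mice, just past the fold threshold of 1. That call was lost in 8 of 10 fits with 1 mouse left out, with log2 fold changes from 0.91 to 1.24, and without a filter on low values (adjusted p = 0.0548 by limma). Its log2 fold change was 0.04 for the Ang II response of WT mice and -0.06 between the saline-treated genotypes, neither past the test. An antisense gene, Gm42809, shares exon bases with Il6ra and reached at most 0.270 FPKM, and the libraries did not keep the strand.

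Il11ra1 (ENSMUSG00000073889, chr4:41699989-41769474, plus strand), the receptor of interleukin-11, was the most abundant of the 10 genes, with a mean of 54.7 FPKM over the 20 mice, and the only one called lower in any comparison. Ang II-treated Plod1-/- mice had 33.4, 33.7, 31.4, 23.8 and 35.2 FPKM. Saline-treated Plod1-/- mice had 62.4, 66.4, 77.5, 72.3 and 73.4 FPKM. Ang II-treated WT mice had 40.4, 50.2, 42.2, 56.1 and 47.5 FPKM. Saline-treated WT mice, between 58.2 and 76.4 FPKM, overlapped the saline-treated Plod1-/- mice, and the order below them was Ang II-treated WT and then Ang II-treated Plod1-/- mice, with no overlap at either step. In Plod1-/- mice Il11ra1 fell by 1.14 on the log2 scale (SE 0.12, adjusted p = 7.52e-05 by limma). In WT mice the log2 fold change was -0.55 (SE 0.13, adjusted p = 0.00887 by limma) and between the Ang II-treated genotypes it was -0.57 (SE 0.14, adjusted p = 0.0138 by limma), both past the p threshold and short of the fold threshold. In RNA from a whole vessel, fewer cells that express a gene and less RNA of it per cell cannot be told apart, and the smooth muscle marker sum was also lower under Ang II, with a group median of 4200.0 FPKM in Ang II-treated Plod1-/- mice, 8274 FPKM in the WT mice on Ang II and 15800.0 to 19180.0 FPKM in the saline groups. On the log2 scale Pearson's r of Il11ra1 with this sum was 0.81 over the 20 mice and 0.30 after the group means were removed. Replicate 1 of the Ang II-treated Plod1-/- mice, with 16760 FPKM of these markers, had 33.4 FPKM of Il11ra1. The part of smooth muscle in the fall of Il11ra1 was not tested. Ccl27a shares exon bases with Il11ra1 on the opposite strand and reached at most 11.4 FPKM. The near-identical Il11ra2 had group means from 0.442 to 0.971 FPKM, lowest in the Ang II-treated Plod1-/- mice, and reads from the pair may have been split between them.

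No signalling receptor was called in any of the 5 comparisons. Il6st (ENSMUSG00000021756, chr13:112464070-112510086, plus strand), the shared chain gp130, was at 15.3 to 30.2 FPKM with a median of 20.1 in Ang II-treated Plod1-/- mice and at 13.7 to 32.4 FPKM with a median of 17.7 in WT mice on Ang II. The saline groups ranged from 22.1 to 25.9 FPKM in WT and from 17.6 to 22.8 FPKM in Plod1-/- mice. The Ang II groups covered each other almost entirely. The difference between the Ang II-treated genotypes was 0.05 (95% confidence interval -0.47 to 0.56, adjusted p = 0.895 by limma), and its sign turned in some of the other fits. Under saline Il6st was slightly lower in Plod1-/- mice, by a log2 fold change of -0.35 (SE 0.08, adjusted p = 0.0377 by limma), which is short of the fold threshold. Its responses to Ang II, 0.12 in Plod1-/- and -0.27 in WT mice, did not pass the test.

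Osmr (ENSMUSG00000022146, chr15:6813577-6874969, minus strand), the chain that pairs with gp130 for oncostatin M, and Lifr (ENSMUSG00000054263, chr15:7090614-7197489, plus strand), the chain for leukemia inhibitory factor, lie 215644 bases apart. Osmr ran from 4.64 to 9.37 FPKM in Ang II-treated Plod1-/- mice, from 4.46 to 6.46 FPKM in saline-treated Plod1-/- mice and from 3.87 to 10.04 FPKM in saline-treated WT mice. In Ang II-treated WT mice it was at 11.1, 3.12, 3.46, 4.45 and 3.39 FPKM. Replicate 1 was the highest of all 20 mice and the other 4 were below every Ang II-treated Plod1-/- mouse. The Ang II-treated genotypes differed by 0.50 on the log2 scale (95% confidence interval -0.14 to 1.14, adjusted p = 0.210 by limma) and, without that replicate, by 0.78 (adjusted p = 0.0111 by limma). Its response to Ang II was 0.35 in Plod1-/- and -0.48 in WT mice, neither past the test. The group means of Lifr were lower under Ang II, with 3.32 to 6.41 FPKM in Plod1-/- and 4.60 to 8.28 FPKM in WT mice, against 5.60 to 9.22 and 4.63 to 13.0 FPKM under saline. Its log2 fold change under Ang II was -0.64 (SE 0.18, adjusted p = 0.0145 by limma) in Plod1-/- mice and -0.48 (SE 0.24, adjusted p = 0.121 by limma) in WT mice, neither past the fold threshold. Between the Ang II-treated genotypes it was -0.38 (95% confidence interval -0.82 to 0.06, adjusted p = 0.162 by limma). Under saline Osmr differed between the genotypes by -0.34 and Lifr by -0.23, neither past the test.

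Socs3 (ENSMUSG00000053113, chr11:117966079-117970047, minus strand) encodes the inhibitor that STAT3 induces and that blocks gp130 signalling. The Ang II-treated Plod1-/- mice had 24.9, 85.3, 76.2, 78.3 and 102 FPKM. Saline-treated Plod1-/- mice had 2.80, 4.32, 4.04, 8.54 and 4.55 FPKM. WT mice had 15.3, 10.1, 6.92, 18.6 and 5.88 FPKM under saline and 22.1, 2.96, 2.64, 2.15 and 5.22 FPKM under Ang II. All 5 Ang II-treated Plod1-/- mice were above the other 15, and the closest pair was replicate 1 of each Ang II group, at 24.9 and 22.1 FPKM. Socs3 was higher than in Ang II-treated WT mice by a log2 fold change of 3.54 (SE 0.55, adjusted p = 0.00223 by limma), and rose by 3.60 (SE 0.37, adjusted p = 6.51e-05 by limma) over saline in Plod1-/- mice. In WT mice its log2 fold change under Ang II was -0.98 (SE 0.51, adjusted p = 0.139 by limma), and without Ang II-treated WT replicate 1 it fell by 1.48 (adjusted p = 0.00876 by limma). Under saline it was -1.03 (SE 0.31, adjusted p = 0.0700 by limma) in Plod1-/- against WT mice, and without saline-treated WT replicate 5 it was called lower, at -1.22 (adjusted p = 0.0476 by limma).

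**Figure D2:**
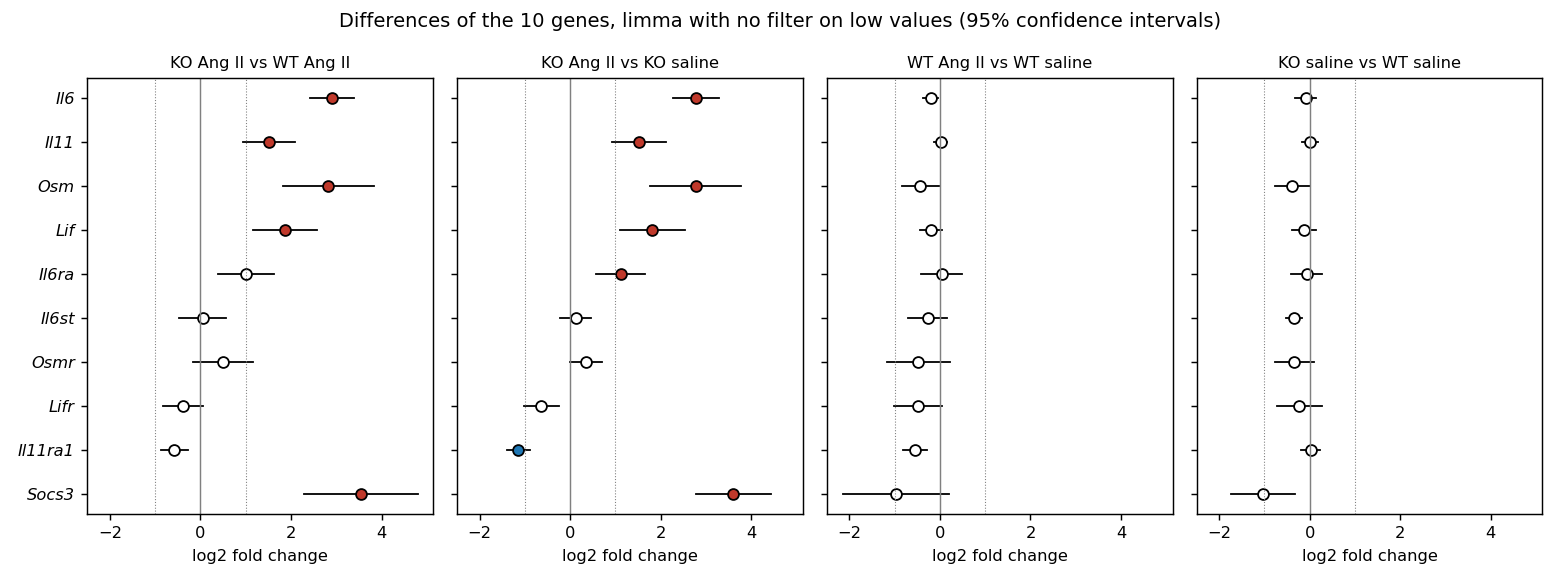
Log2 fold changes of the 10 genes on the log2(FPKM + 1) scale (horizontal axis) in 4 comparisons, from limma without a filter on low values so that all 10 have a value; lines are 95% confidence intervals, red and blue points are called higher and lower, open points are not called, and dotted lines mark a log2 fold change of 1. The 4 ligands and Socs3 lie to the right in both comparisons with Ang II-treated Plod1-/- (KO) mice, and no gene is called in the other 2. Il6ra, called between the Ang II-treated genotypes with the filter, is open there with an adjusted p of 0.0548.

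The interaction, the log2 response of Plod1-/- mice minus that of WT mice in all 20 mice, was 2.99 for Il6 (SE 0.25, adjusted p = 2.39e-06 by limma), 3.21 for Osm (SE 0.50, adjusted p = 1.77e-04 by limma) and 1.504 for Il11 (SE 0.28, adjusted p = 7.78e-04 by limma). These 3 ligands passed the filter through the Ang II-treated Plod1-/- mice, with only 1 other mouse at 1 FPKM or more and only for Osm, so those p-values are not evidence about them. With no filter on low values, over 43086 genes, the adjusted p-values by limma were 1.13e-05, 6.64e-04 and 0.00237. For Socs3 the interaction was 4.58 (SE 0.67, adjusted p = 1.16e-04 by limma) and for Il6ra 1.08 (SE 0.32, adjusted p = 0.0146 by limma). The call of Il6ra was lost without saline-treated WT replicate 4 (0.98), without Ang II-treated Plod1-/- replicate 2 (0.97), with quantile normalization (0.91) and without mitochondrial genes (0.996), each short of the fold threshold. Among all 13263 genes 9.69% were called higher and 6.36% lower. Lif, tested without the filter, had an interaction of 2.003 (SE 0.35, adjusted p = 0.0014 by limma). The interaction of Osmr was 0.83 (SE 0.37, adjusted p = 0.0782 by limma), and without Ang II-treated WT replicate 1 it was 1.11 (adjusted p = 0.00416 by limma). For Il11ra1 the interaction was -0.60 (SE 0.17, adjusted p = 0.0107 by limma), short of the fold threshold, and for Il6st (0.39) and Lifr (-0.16) it did not pass the test.

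Macrophage and neutrophil marker sums had their highest medians in the Ang II-treated Plod1-/- mice, while early genes were lowest in the Ang II-treated WT mice. The macrophage marker sum was 635 to 3715 FPKM in Ang II-treated Plod1-/- mice, 56.0 to 208 FPKM in saline-treated Plod1-/- mice, 125 to 242 FPKM in saline-treated WT mice and 197 to 1290 FPKM in Ang II-treated WT mice, and all 8 of its genes were called higher in Plod1-/- mice between the Ang II-treated genotypes. Of all genes tested in that comparison, 7.45% were called higher and 3.67% lower. The neutrophil marker sum was 156 to 723 FPKM in Ang II-treated Plod1-/- mice and at most 192 FPKM elsewhere, with 5 of 6 genes called higher. Early genes (8 genes, Fos and Egr1 among them) also respond to the handling of tissue. They summed to 338 to 899 FPKM in Ang II-treated Plod1-/- mice and 109 to 778 FPKM in saline-treated Plod1-/- mice, which overlap. WT mice had 318 to 2060 FPKM under saline and 60.0 to 93.7 FPKM under Ang II. For the Ang II response of Plod1-/- mice 3 of the 8 were called higher, where 8.38% of all genes tested were. No macrophage marker was at 0 in all mice of a group. The part of these cells and of handling in the rise of the ligands and Socs3 was not tested. Between the Ang II-treated genotypes 7 of 8 early genes were called higher, 2 of 6 smooth muscle (5 of 6 without replicate 1 of the Ang II-treated Plod1-/- mice), 2 of 7 adipocyte and 2 of 4 skeletal muscle markers lower (0 to 3 with 1 mouse left out, and 0 without replicate 3 or replicate 5 of the Ang II-treated WT mice), 1 of 6 fibroblast markers higher (Col1a1) and 1 lower (Pi16), none of 5 endothelium and 3 B cell markers was called, and the 3 T cell markers were below the filter. Adipocyte markers were highest in WT mice on Ang II, where the median sum was 2852 FPKM against 582 FPKM in Ang II-treated Plod1-/- mice, and skeletal muscle markers reached 215 FPKM there and no more than 6.61 FPKM elsewhere.

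**Figure D3:**
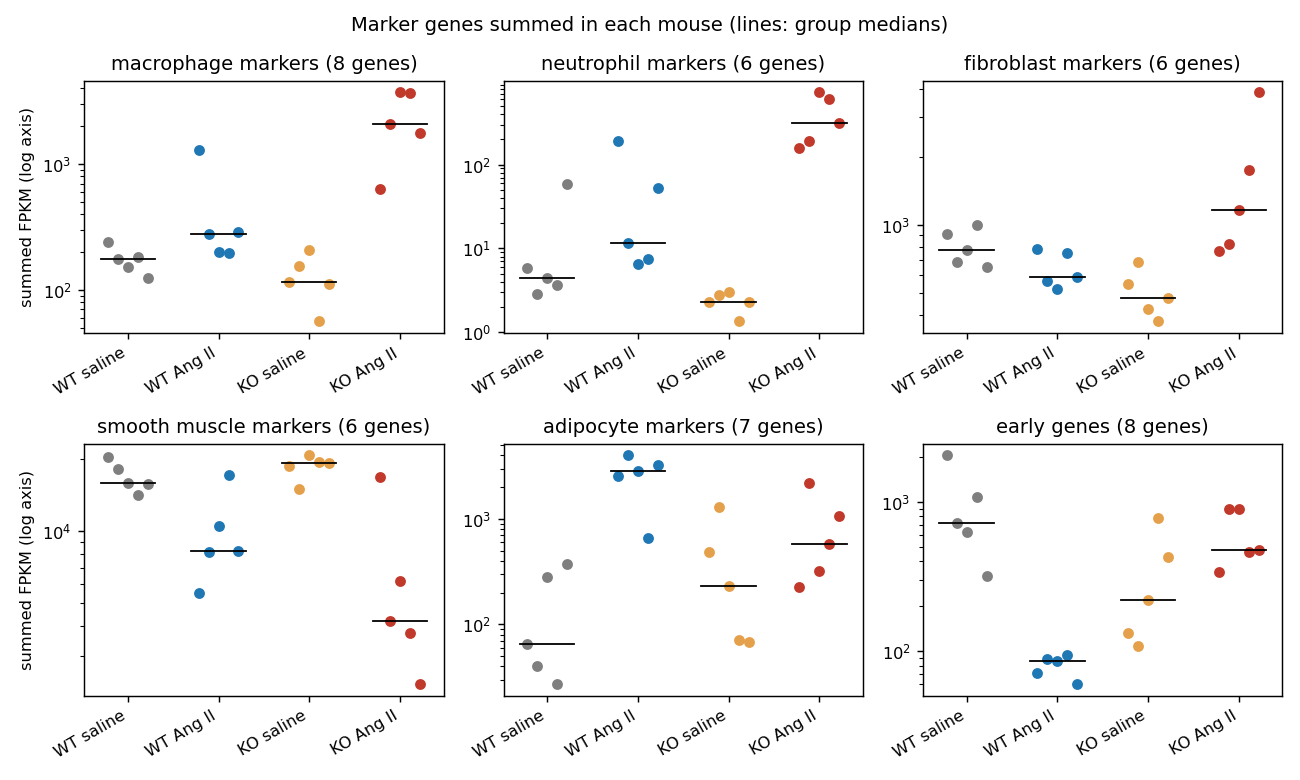
Summed FPKM of 6 marker lists in each mouse (vertical axes, logarithmic) by group; points are mice in replicate order and lines are group medians. Macrophage and neutrophil markers are highest in Ang II-treated Plod1-/- (KO) mice and in replicate 1 of the Ang II-treated WT mice, and early genes are lowest in Ang II-treated WT mice, at 60.0 to 93.7 FPKM.

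The 5 Ang II-treated Plod1-/- mice were not alike. Replicate 1, which held Xist RNA, had the lowest Il6, Osm, Lif, Il6ra and Socs3 and the highest Il11 of its group, with the lowest macrophage marker sum (635 FPKM). Leaving it out moved the difference of the Ang II-treated genotypes on the log2 scale to 3.11 for Il6, 3.23 for Osm, 2.17 for Lif, 1.24 for Il6ra and 3.89 for Socs3, and each of these 5 passed its test. Il6, Osm and Lif entered that fit only through the remaining Ang II-treated Plod1-/- mice, so for them passing is no evidence. After the group means were removed, Pearson's r over the 20 mice was 0.73 between Il6 and Lif, 0.56 between Il6 and Osm and 0.62 between Il6 and Socs3, while Il11 had r of -0.39 with Il6, -0.42 with Osm and -0.43 with Lif. Outside the Ang II-treated Plod1-/- group Il6 was at most 0.414, Lif 0.64 and Il11 0.383 FPKM. The values of r between the ligands thus rested mainly on the 5 mice of that group, and among them on replicate 1. Without it, r was 0.23 between Il6 and Lif, -0.14 between Il6 and Osm and 0.46 between Il6 and Socs3, and Il11 had r of 0.36 with Il6, 0.21 with Osm and 0.30 with Lif. With the smooth muscle marker sum, r was 0.62 for Il11 and -0.67 for Il6 in all mice, and 0.22 and -0.18 without replicate 1. The macrophage marker sum had r of 0.69 with Osm and 0.50 with Il6 in all mice, and 0.51 and 0.14 without it.

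**Figure D4:**
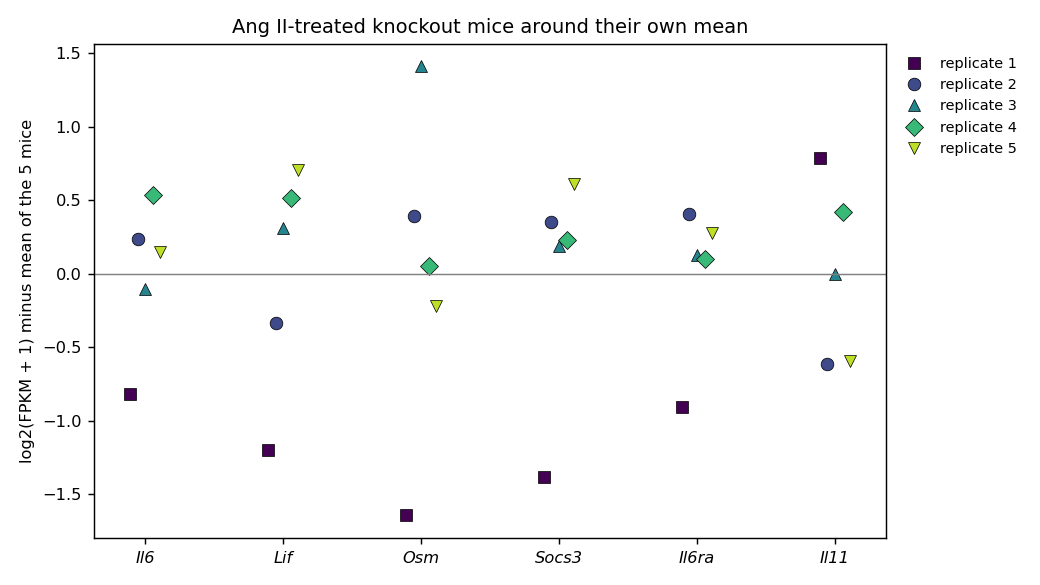
The 5 Ang II-treated Plod1-/- mice around their own mean, as log2(FPKM + 1) minus the mean of the 5 (vertical axis), for 6 genes (horizontal axis); each symbol is 1 mouse. Replicate 1 is the lowest for Il6, Lif, Osm, Socs3 and Il6ra and the highest for Il11.

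Over all 20 mice, the genes whose log2(FPKM + 1) had the highest Pearson's r with each member, among 13263 genes, were as follows. Cxcl5 (0.98), Steap1 (0.98) and Nt5dc2 (0.97) followed Il6 most closely. Cxcl2 (0.97), H2afz (0.97) and Mcm3 (0.96) came nearest to Osm, and Foxm1 (0.98), Ndc80 (0.98) and Top2a (0.97) to Lif. The genes most like Il11 were Glipr2 (0.94), Thg1l (0.94) and Dctd (0.93). Socs3 was tracked by Ptx3 (0.97), Cers6 (0.96) and Cxcl1 (0.96), and Il6ra by Ildr2 (0.95), Kcnk13 (0.95) and Mcoln2 (0.94). Values for Il11ra1 were 0.96 with Cpq and 0.95 with both Gstm2 and Gm6665, and for Lifr 0.95 with Mxd4, 0.91 with Crebrf and 0.90 with Atg14. The flatter genes had lower values, 0.87 for Il6st with Sulf2, 0.86 with Tgfbr3 and 0.86 with Heg1, and 0.88 for Osmr with Acvr1b, 0.87 with Map3k8 and 0.86 with Gsdme. These correlations mostly carry the difference between the groups and rest on the same libraries.

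Other genes of the family were mostly low. Of 12 further ligands and receptors, 9 stayed below the filter in each 2-group comparison. Cntfr and Ctf1 were tested, and neither was called between the Ang II-treated genotypes with all mice kept. Cntfr was called lower there without replicate 1, and likewise without replicate 4, of the Ang II-treated WT mice. Ctf1, which encodes cardiotrophin-1, another gp130 ligand, was named after its values were seen. It was at 1.46 to 4.16 FPKM in Ang II-treated Plod1-/- mice, against 5.23 to 7.05 FPKM in saline-treated Plod1-/- mice and 3.25 to 5.81 FPKM in Ang II-treated WT mice. Its log2 fold changes were -0.93 (SE 0.18, adjusted p = 0.0018 by limma) and -0.70 (SE 0.20, adjusted p = 0.0237 by limma), short of the fold threshold and opposite in sign to those of Il6, Il11 and Osm. Cntfr, the receptor of ciliary neurotrophic factor, rose in WT mice under Ang II by a log2 fold change of 1.06 (SE 0.33, adjusted p = 0.0287 by limma), and its interaction was called lower, at -1.37 (SE 0.50, adjusted p = 0.0391 by limma). With 1 mouse left out the first call was lost in 5 of 10 fits (log2 fold changes 0.83 to 1.27) and the second in 10 of 20 (-1.58 to -1.12). The first was lost without saline-treated WT replicates 1 or 2 or Ang II-treated WT replicates 2, 3 or 5, and the second without any of these, saline-treated Plod1-/- replicates 1 or 2 or Ang II-treated Plod1-/- replicates 1, 2 or 3.

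Genes of the signal chain below gp130 were followed as a list. Of 15 genes for Janus kinases, STATs and their regulators, 2 were called higher between the Ang II-treated genotypes, against 7.45% of all genes. They were Socs1 (log2 fold change 1.44) and Ptpn6 (2.36), which encodes a phosphatase of blood cells. Socs1 already differed by 0.76 between the saline-treated genotypes (adjusted p = 0.125 by limma, not called). Its interaction, 0.68, was not called either (adjusted p = 0.216 by limma). The median of the list was 0.22, against 0.12 over all genes tested. Stat3 itself was at 20.1 to 34.0 FPKM in Ang II-treated Plod1-/- mice and at 29.99, 10.6, 13.2, 15.8 and 12.3 FPKM in Ang II-treated WT mice. Its log2 fold change was 0.76 (SE 0.25, adjusted p = 0.0424 by limma) and its interaction 1.18 (SE 0.28, adjusted p = 0.00364 by limma), with a log2 fold change in WT mice of -0.72 (SE 0.23, adjusted p = 0.0306 by limma). The other called interactions of the list were 2.15 for Ptpn6 (adjusted p = 0.0139 by limma) and 1.06 for Socs2 (adjusted p = 0.0192 by limma), which encodes another inhibitor of cytokine signalling. Socs2 was at 1.36 to 4.56 FPKM in Ang II-treated WT mice and 3.97 to 9.90 FPKM in saline-treated WT mice, and fell by 1.13 on the log2 scale (adjusted p = 0.00995 by limma). With 1 mouse left out its call was lost in 6 of 20 fits of the interaction and 1 of 10 of the WT response. Under Ang II in Plod1-/- mice Ptpn6 was the only called gene of the list, at 3.08 (adjusted p = 6.80e-04 by limma). None of the 4 genes for shedding of the interleukin-6 receptor (Adam10, Adam17, Rhbdf1, Rhbdf2) was called, with a median of 0.61, but without replicate 1 of the Ang II-treated Plod1-/- mice 1 of them was called higher between the Ang II-treated genotypes and 2 for the response of Plod1-/- mice. Of 3 genes that control Il6 mRNA stability, Zfp36, which encodes an mRNA-destabilizing protein, was called higher, by 2.11 (SE 0.28, adjusted p = 0.00134 by limma), and in WT mice it fell under Ang II by 2.14 (SE 0.32, adjusted p = 0.00187 by limma).

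Genes that STAT3 is known to induce were also followed. The list was chosen with earlier results of these data known. Of 15, 11 were called higher under Ang II in Plod1-/- mice, where 8.38% of all genes tested were. Saa3 and Batf, among the 11, passed the filter of that fit through the Ang II-treated mice alone. No saline-treated Plod1-/- mouse reached 1 FPKM of either, so their calls are no evidence. The median log2 fold change was 2.83 against 0.05 over all genes tested. In WT mice 3 of 13 tested were called higher (Pim1, Hp and Lrg1) and 1 lower (Junb), where 6.38% and 2.28% of all genes were. The median in WT mice was 0.25 against -0.14. The same 7 genes (Bcl3, Junb, Myc, Mcl1, Timp1, Il4ra and Batf) were called higher between the Ang II-treated genotypes and for the interaction. Of all genes, 7.45% and 9.69% were called higher in these fits. Between the Ang II-treated genotypes the median was 1.71 against 0.12. With 1 mouse left out the count ran from 6 to 10, and the 10 came without Ang II-treated WT replicate 1. The count for Plod1-/- mice under Ang II ran from 11 to 12, and the count higher in WT mice from 2 to 5, the 5 without Ang II-treated WT replicate 4. Without Ang II-treated WT replicate 1, 2 of these genes were called lower in WT mice. Myc, a growth regulator, was at 20.1 to 27.7 FPKM in Ang II-treated Plod1-/- mice and at 2.72 to 10.1 FPKM in Ang II-treated WT mice, a log2 fold change of 2.37 (SE 0.28, adjusted p = 8.85e-04 by limma). Timp1, a metalloproteinase inhibitor, was at 293 to 837 FPKM and at 26.3 to 342 FPKM, a log2 fold change of 3.27 (SE 0.61, adjusted p = 0.00468 by limma). It overlaps Syn1 on the opposite strand. The acute-phase gene Hp did not pass the test between the Ang II-treated genotypes (log2 fold change 2.04, SE 0.88, adjusted p = 0.101 by limma), and Ang II-treated WT replicate 1 had 4690.0 FPKM of it, against 102 to 606 FPKM in the other 4 mice of that group. Several of these genes are also expressed by macrophages and neutrophils, whose markers moved with the groups, and Junb and Zfp36 respond early like Fos. Their part in these counts was not tested.

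**Figure D5:**
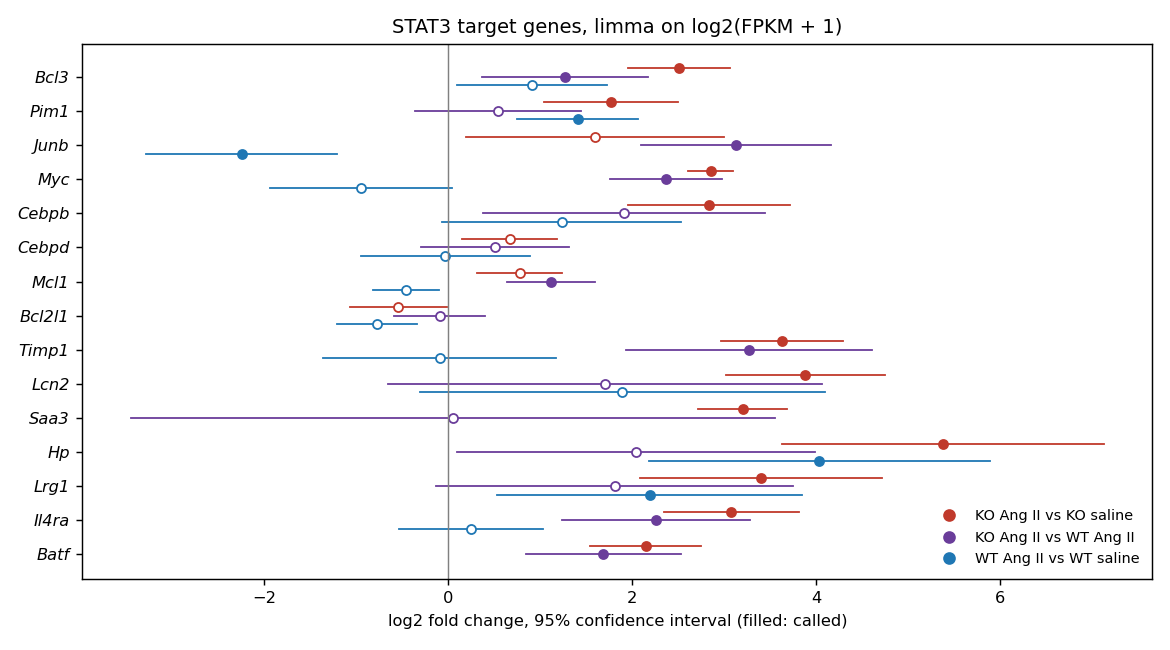
Log2 fold changes of 15 STAT3 target genes on the log2(FPKM + 1) scale (horizontal axis) in 3 comparisons, with 95% confidence intervals; filled points are called and genes below the filter have no point. In Plod1-/- (KO) mice 11 are called higher under Ang II (red), 7 are called higher between the Ang II-treated genotypes (purple), and in WT mice 3 are called higher and 1 lower (blue). Of all genes tested, 8.38%, 7.45%, 6.38% and 2.28% were called so, in that order. Saa3 and Batf entered the fit of the response of Plod1-/- mice through the Ang II-treated mice alone, so those red calls are no evidence.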

How the data were processed

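RNA of the abdominal aorta from 20 mice (4 labelled groups of 5) was sequenced as libraries that do not keep the strand. The deposited values are FPKM of 43422 Ensembl genes per mouse, which the authors computed with HISAT2, stringtie and cuffnorm per their methods. The submitters' processing notes name mm10, HISAT2 2.1.0, Bowtie2 2.2.3 and HTSeq 0.6.0. Symbols and coordinates came from GENCODE mouse release 21 (GRCm38), and promoters from RefSeq for 9 of the 10 genes, all but Osm.

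Values were transformed to log2(FPKM + 1). Genes with at least 1 FPKM in at least 5 mice of a comparison were fitted with limma 3.58.1 in R 4.3.3 (eBayes with a variance trend, the 2 groups compared, or all 20 mice for the interaction). A call needed a two-sided Benjamini-Hochberg adjusted p below 0.05 over all genes tested and a log2 fold change larger than 1 in either direction. edgeR, which the authors used, needs counts and was not run. At the same thresholds the study reported far fewer genes between the Ang II-treated genotypes and for each Ang II response than limma called here. The shares of all genes called therefore hold for these fits only. Genes below the filter were compared with exact permutation tests, and the method was tested on simulated data. Members and gene lists were chosen with earlier results of these data known. All 10 members are named in each comparison, lists are given by counts with called genes named where they bear on the family, and the 3 genes with the highest Pearson's r with each member are named. Alternatives were a pseudocount of 0.1, no filter, replicate number as a block, quantile normalization, all 4 groups in one fit, weights per mouse, each mouse left out in turn (with a minimum of 4 mice in the filter), both libraries with Xist RNA left out, and mitochondrial genes left out. One further gene of the family list is not reported here. Leaving out mice for the gene lists, single list genes and the correlations was added after seeing the data. Nothing says that same-numbered mice share a litter or day, and their deviations from the group means correlated from -0.33 to 0.42, over 0.1 in at most 2 of 5 pairs of a comparison.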

Additional observations from a re-analysis of the deposited data

Results flagged for a closer look

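In 4 of the 40 sets of 5 mice examined (10 genes in 4 groups), 1 mouse lay far from the other 4, by a gap that took more than 0.71 of the group's range. Chance gives this in about 1 of 20 sets. In 3 of them the mouse was Ang II-treated WT replicate 1, whose macrophage marker sum of 1290 FPKM was also the highest of its group. Its Il6ra was 3.32 FPKM (gap 0.865 of the range), its Osmr 11.1 FPKM (gap 0.835 of the range) and its Socs3 22.1 FPKM (gap 0.846 of the range). The other was Osm in saline-treated Plod1-/- replicate 3, at 0.503 FPKM (gap 0.787 of the range). The part of the immune cell markers in these values was not tested.

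The Ang II response of Plod1-/- mice was larger than that of WT mice by an interaction of 2.99 for Il6, 1.504 for Il11, 3.21 for Osm, 1.08 for Il6ra and 4.58 for Socs3 on the log2 scale, each past the limma test over 13263 genes. Il6, Il11 and Osm entered that fit through the Ang II-treated Plod1-/- mice, so for them the test is no evidence. With no filter on low values their adjusted p-values by limma were 1.13e-05, 0.00237 and 6.64e-04.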

How the results depend on the processing

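The number of members called stayed within 1.5 times its value in every alternative fit of the 5 comparisons but 2. Without Ang II-treated WT replicate 1, 1 member (Socs3) was called in the WT response, and without saline-treated WT replicate 5, 1 member (Socs3) was called between the saline groups. Over the fits with 1 mouse left out, the count ran from 4 to 6 between the Ang II-treated genotypes, 6 to 7 for the response of Plod1-/- mice, 0 to 1 for WT mice, 0 to 1 under saline and 4 to 7 for the interaction. With both libraries with Xist RNA left out it was 6, 7 and 6 in the 3 comparisons with calls, since Lif was then tested. The ligands entered the filtered fits through the Ang II-treated Plod1-/- mice, so their part in these counts is no evidence about them.

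With the replicate number as a block, though the numbers do not pair the mice, 4 members were called between the Ang II-treated genotypes, since Il6ra (log2 fold change 1.01) had a limma adjusted p of 0.0717. Il6ra was also short of the fold threshold with quantile normalization (0.83, 0.99 for the response of Plod1-/- mice and 0.91 for the interaction) and without mitochondrial genes (0.94, and 0.996 for the interaction). Quantile normalization moved the median of all genes between the Ang II-treated genotypes from 0.12 to -0.03, and called 744 genes higher and 612 lower, against 920 and 453. With weights per mouse the interaction of Osmr was 1.17 (limma adjusted p = 0.0017).

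Signs turned only for values near 0 that no fit called. Il6st between the Ang II-treated genotypes was -0.057 with quantile normalization and -0.055 without mitochondrial genes. Il11 under saline was -0.018 with a pseudocount of 0.1, and with weights per mouse Il6ra in the WT response was -0.063 and the interaction of Lifr 0.17. With 1 mouse left out, Il6st ran from -0.089 to 0.21 between the Ang II-treated genotypes and from -0.0033 to 0.23 in the response of Plod1-/- mice, and Il11 from -0.014 to 0.037 in the WT response and from -0.047 to 0.053 under saline. Il6ra ran from -0.15 to 0.13 in the WT response and from -0.16 to 0.034 under saline, Il11ra1 from -0.037 to 0.065 under saline, and the interaction of Lifr from -0.27 to 0.057. The cause was not tested. FPKM gives no depth, so no detection limit is given for the ligands in the groups where they were low.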
